A study of Mus musculus with 10 samples.

Results

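Mitochondria divide and fuse continuously, and the genes that carry out both processes were followed in mouse embryonic stem (ES) cells treated with a Kat2a inhibitor. The 10 genes comprised 5 of fission (Mff, Dnm1l, Fis1, Mief1 and Mief2), 3 of fusion (Mfn1, Mfn2 and Opa1) and 2 that encode inner membrane proteases (Oma1 and Yme1l1). They were taken by symbol from the Ensembl gene rows of the RNA sequencing (RNA-seq) count table, and all 10 were among its 30677 genes and among the 20027 with enough reads to test. After 48 hours of MB-3 none of the 10 transcripts passed the test for a change, and the 95% intervals of their changes together ran from -15.3% to 26.5%. The largest average differences were 11.8% higher for Oma1, 9.5% higher for Mief1 and 6.8% lower for Mff.

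In fission, the GTPase encoded by Dnm1l is recruited from the cytosol to receptors on the outer mitochondrial membrane, which Mff, Fis1, Mief1 and Mief2 encode, and constricts the organelle. In fusion, the mitofusins Mfn1 and Mfn2 join the outer membranes of neighboring mitochondria, and Opa1 joins the inner membranes and shapes the cristae. Oma1 and Yme1l1 cleave Opa1 into short forms, Oma1 mainly under stress, so part of the control of this system lies in protein processing and recruitment that transcript counts do not measure. ES cells are known for small, rounded mitochondria with few cristae.

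The cells were TNGA mouse ES cells, a line in which 1 Nanog allele drives green fluorescent protein, kept in serum with leukemia inhibitory factor (LIF). The control cultures received the vehicle DMSO for 48 hours and the treated cultures 100 μM MB-3, an inhibitor of the histone acetyltransferase Kat2a (Gcn5), and the volume of DMSO was 0.1% in all of them. RNA-seq of polyadenylated RNA was done on 3 cultures per group, lettered A, B and C, and chromatin immunoprecipitation sequencing (ChIP-seq) of histone H3 acetylated at lysine 9 (H3K9ac) gave 1 peak list per group. The RNA-seq libraries of DMSO replicates A, B and C held 48144367, 51137896 and 46863700 counts, and those of MB-3 replicates A, B and C held 49334434, 44985772 and 42270312. All cultures came from a single line, so the p-values measure the spread between cultures of that line.

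The libraries carried the markers of ES cells. The 9 ES cell markers looked at summed to between 4710 and 5200 CPM (read counts relative to the normalized library size) in all 6 libraries, with Dppa5a the most abundant at a mean of 1450 CPM in the controls and 1320 CPM in the treated cultures. The 8 fibroblast markers summed to 8.33 to 11.7 CPM in DMSO and 7.15 to 7.35 CPM in MB-3, with Thy1 the most abundant, and Lum had 0 counts in 3 of the 6 libraries. The 7 markers of extraembryonic endoderm, led by Dab2, summed to 8.18 to 12.8 CPM over all libraries, and the 3 of neuroectoderm, led by Nes, to 59.8 to 85.5 CPM. A signature of simple epithelium and contractile cells (Krt8, Krt18, Krt19, Tagln, Acta2 and S100a6) differed more, with sums of 266, 155 and 467 CPM in DMSO replicates A, B and C and of 126, 90.4 and 205 CPM in the corresponding MB-3 replicates. Its most abundant gene, Krt18, averaged 81.1 CPM in the controls and 42.8 CPM in the treated cultures. The 4 primitive streak markers, led by T, summed to 15.1 to 46.1 CPM in DMSO and 7.83 to 13.4 CPM in MB-3, without overlap. None of the genes on these lists was called in the test described below with treatment as its only term, and with the replicate letter as a block all 6 of the epithelial and contractile signature and 3 of the 4 primitive streak markers were, all lower. That fit, which called 7.12% of all genes tested, also called the fibroblast markers Col1a1 and Col1a2 and the ES cell marker Tfcp2l1, all lower, and of the neuroectoderm markers Pax6, which was higher, and Nes, which was lower. In bulk RNA, fewer cells of a type and less RNA per cell cannot be told apart, and the part of these differences in the values below was not tested.

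H3K9ac peaks could be tied to 4 of the genes. Peaks were tied to a gene only through the authors' own assignment of peaks to nearby start sites, of which the first 1999 rows for each list were used here. In that portion a DMSO peak was assigned to Mff, and MB-3 peaks to Dnm1l, to Opa1 and, under its older symbol Smcr7l, to Mief1. The promoters of these genes are printed because the peaks were assigned to their start sites. Each line runs 5′ to 3′ on the strand of the gene, from 250 bases before the RefSeq start site to 50 from it on, on GRCm38. Where RefSeq gives several start sites the one nearest to the GENCODE start was taken. Capitals mark matches on either strand to the letters of NRF1 (GCATGCGC) and GABPA (CCGGAAGT), transcription factors known for the control of nuclear genes for mitochondrial proteins, to the E-box (CACGTG) bound by Myc and Max, and to the CCAAT box (CCAAT). The Mff window is chr1:82724640-82724939 on the plus strand, the Dnm1l window chr16:16358982-16359281 on the minus strand, the Mief1 window chr15:80233830-80234129 on the plus strand and the Opa1 window chr16:29579084-29579383 on the plus strand.
Mff: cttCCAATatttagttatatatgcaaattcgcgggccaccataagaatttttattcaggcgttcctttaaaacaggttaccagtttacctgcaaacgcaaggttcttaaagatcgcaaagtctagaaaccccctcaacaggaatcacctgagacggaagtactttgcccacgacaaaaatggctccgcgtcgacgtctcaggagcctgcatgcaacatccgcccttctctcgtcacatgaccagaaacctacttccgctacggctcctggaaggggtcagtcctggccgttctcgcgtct
Dnm1l: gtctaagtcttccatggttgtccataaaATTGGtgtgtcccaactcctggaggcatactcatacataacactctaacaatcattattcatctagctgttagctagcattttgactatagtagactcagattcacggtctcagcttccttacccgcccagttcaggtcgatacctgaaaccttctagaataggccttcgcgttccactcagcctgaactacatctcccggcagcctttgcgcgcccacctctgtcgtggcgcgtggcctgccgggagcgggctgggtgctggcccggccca
Mief1: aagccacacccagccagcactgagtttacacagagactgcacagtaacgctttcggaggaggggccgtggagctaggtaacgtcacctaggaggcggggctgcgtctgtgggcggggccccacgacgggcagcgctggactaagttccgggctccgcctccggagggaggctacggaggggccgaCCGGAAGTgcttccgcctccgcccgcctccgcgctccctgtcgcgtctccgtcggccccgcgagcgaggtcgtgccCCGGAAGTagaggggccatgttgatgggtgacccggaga
Opa1: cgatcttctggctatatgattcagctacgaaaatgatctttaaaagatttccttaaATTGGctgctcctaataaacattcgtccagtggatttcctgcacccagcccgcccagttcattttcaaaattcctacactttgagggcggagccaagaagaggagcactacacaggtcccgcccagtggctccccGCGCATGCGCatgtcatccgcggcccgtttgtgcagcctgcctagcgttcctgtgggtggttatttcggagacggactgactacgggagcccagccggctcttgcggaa

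With the start site counted as 0, the Opa1 window held NRF1 letters with first bases at -59 and -57, which are the 2 strands of 1 palindromic stretch. The Mief1 window held GABPA letters at -65 and 11. The Mff, Dnm1l and Opa1 windows held a CCAAT box far upstream, at -247, -222 and -194. Over the nearest windows of all 10 genes, 1 held NRF1 letters, 3 held GABPA letters (Fis1, Mief1 and Mfn1), 1 held an E-box (Mief2) and 7 held a CCAAT box. Among 32851 promoter windows of the same length, 2.71% held the NRF1 letters, 3.89% the GABPA letters, 7.15% an E-box and 37.4% a CCAAT box. Those windows take in every start site of a gene, whereas each member was counted by 1 window, so the 2 sets of figures are not like for like. The further windows of Mff, Dnm1l and Mfn2 held none of these letters, and that of Fis1 held GABPA letters only. A match is a description of the sequence, not a site shown to be bound.

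Mff was the member whose DMSO peak had no counterpart in the MB-3 list. That peak was 286 bp wide, on mm9 chromosome 1 from 82721546 to 82721831, and the nearest peak of the MB-3 list on that chromosome lay 407882 bp away. Of all 11724 DMSO peaks, 64.2% overlapped no MB-3 peak (Wilson 95% interval 63.3 to 65.0, covering counting error only). Among the 1655 DMSO peaks within 10% of the width of the Mff peak the share was 93.7% (92.4 to 94.8), so absence from the MB-3 list was the usual outcome at this width. The lists hold positions only and came from duplicates that the authors merged because reads were relatively few. Peak height and replicate spread were therefore not analysed here. A peak missing from a list did not pass the peak caller's threshold there, which by itself does not show that acetylation was absent.

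The peaks at Dnm1l, Mief1 and Opa1 were listed for both treatments. At Dnm1l the DMSO peak spanned 683 bp (mm9 chromosome 16, 16358383 to 16359065) and the MB-3 peak 564 bp (16358336 to 16358899), which is 82.6% of the width. At Mief1 the widths were 830 bp (mm9 chromosome 15, 80064506 to 80065335) and 676 bp (80064572 to 80065247), or 81.4%. The widths differed most at Opa1, with 665 bp in DMSO (mm9 chromosome 16, 29579487 to 29580151) and 395 bp in MB-3 (29579562 to 29579956), or 59.4%. Over the 3781 pairs in which 1 DMSO and 1 MB-3 peak overlapped each other and no further peak, the MB-3 peak was the narrower in 93.3%, at a median of 62.7% of the DMSO width (quartiles 46.5% and 78.5%). Narrower MB-3 peaks were thus the rule over the whole lists, and the width at Opa1 lay near that median. These 3 were found through the MB-3 list and were present there by construction, so their number beside the 1 peak absent from it is not a rate. Peaks of the other 6 members, which had no row in the portion used, were not analysed here.

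**Figure D1:**
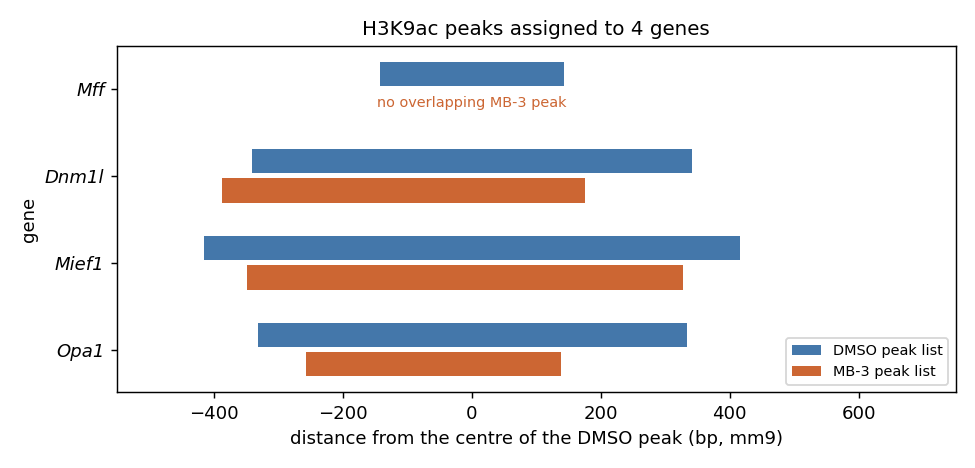
H3K9ac peaks assigned to Mff, Dnm1l, Mief1 and Opa1 in the DMSO list (blue) and the MB-3 list (orange), drawn by distance in bp from the centre of the DMSO peak. The Mff peak of 286 bp has no MB-3 counterpart, and the MB-3 peaks of the other genes are narrower, 395 bp against 665 bp at Opa1, as 93.3% of overlapping pairs in the whole lists are.

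Per kilobase of exon, the family spanned a wide range, and its order was the same in both treatments. Counts were divided by the summed exon length of each gene and by library size (RPKM), which allows levels of different genes to be set side by side. The fission GTPase Dnm1l stood highest in DMSO at 55.2 ± 2.15 RPKM (SD, n = 3), followed by the protease Yme1l1 at 29.4 ± 0.872 RPKM and the receptor Fis1 at 23.8 ± 1.91 RPKM. Opa1 came next at 12.3 ± 0.657 RPKM, ahead of Mff at 8.63 ± 0.0373 RPKM and Mfn1 at 7.25 ± 0.128 RPKM. Mief1 was at 5.70 ± 0.493 RPKM and Oma1 at 4.94 ± 0.277 RPKM. Mfn2 at 3.82 ± 0.153 RPKM and Mief2 at 3.46 ± 0.314 RPKM were the lowest, and their DMSO libraries overlapped, while those of every other pair of neighbors in this order did not. When the length of the longest transcript was used instead, Mff and Opa1 changed places and the other 8 genes kept their ranks, but several levels moved by more than 1.5 times. In DMSO, Mff then stood at 21.5 RPKM, Fis1 at 42.9 RPKM, Yme1l1 at 50 RPKM and Mief1 at 8.98 RPKM, so the levels depend on which length is used.

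**Figure D2:**
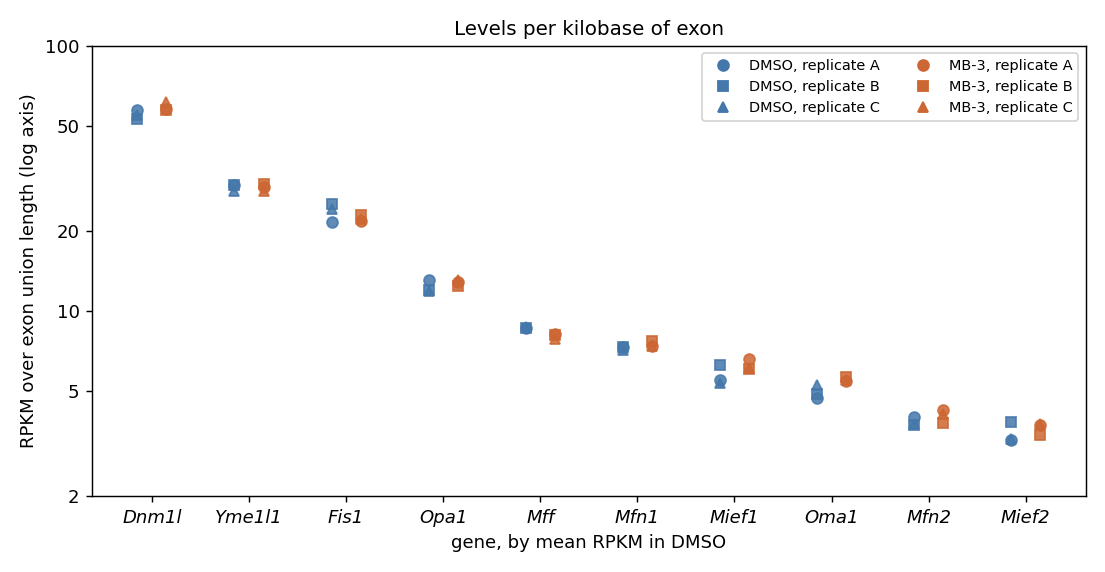
Levels of the 10 genes in RPKM over exon union length (log axis) in each DMSO (blue) and MB-3 (orange) library, ordered by mean level in DMSO. Dnm1l stands highest at 55.2 RPKM and Mief2 lowest at 3.46 RPKM, and the order is the same in both treatments.

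Among the 4 outer membrane receptors, Fis1 was the most abundant transcript. It made up 55.5%, 57.5% and 58.4% of their summed RPKM in DMSO replicates A, B and C and 54.1%, 56.7% and 55.6% in the MB-3 replicates. Mief1 took 14.1%, 14.2% and 12.8% in DMSO and 16.4%, 14.8% and 15.3% in MB-3, the only one of the 4 shares whose groups did not overlap. A share also depends on the other receptors, of which Mff and Fis1 were lower on average, and the CPM groups of Mief1 itself overlapped. Over all genes tested, CPM groups did not overlap in 8.22% with MB-3 higher and in 7.37% with MB-3 lower. Mff took 20.8 ± 1.2% in DMSO and 20 ± 0.38% in MB-3, and Mief2 8.31 ± 0.39% and 8.99 ± 0.56% (SD, n = 3). Of the mitofusin pair, Mfn1 contributed 65.5 ± 0.86% of the RPKM in DMSO and 65 ± 1.8% in MB-3. With the length of the longest transcript, an alternative added after the data were seen, the DMSO shares were 55.6% for Fis1, 27.9% for Mff, 11.6% for Mief1 and 4.82% for Mief2, and Mief1 was again the only one of the 4 without overlap between groups. These shares were formed after the levels had been seen and are descriptions without a test.

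The quasi-likelihood test of edgeR was then applied to all 20027 genes with treatment as its only term, and genes with a Benjamini-Hochberg adjusted p-value under 0.05 were called. Of the 10 members 0 were called, where 0.205% of all genes tested were. None had an unadjusted p-value under 0.05, where 10.9% of all genes did. On average, 7 members were higher and 3 were lower, with a median log2 fold change of 0.06 beside 0 over all genes tested. For Mfn1 and Oma1 every MB-3 library lay above every DMSO library, as in 8.22% of all genes, and for Mff every MB-3 library lay below, as in 7.37%. With 3 libraries per group, complete separation gives a two-sided p-value of 0.1 in an exact permutation test, the smallest it can give.

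**Figure D3:**
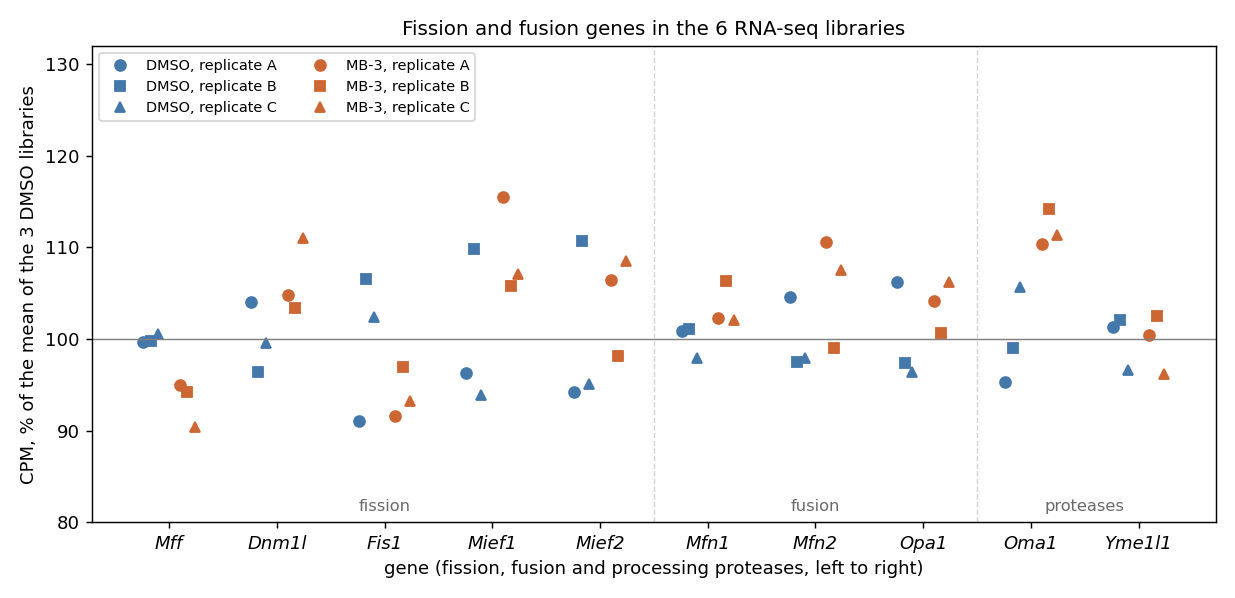
CPM of each gene in each library as a percentage of its mean over the 3 DMSO libraries (blue, DMSO; orange, MB-3; circles, squares and triangles, replicates A, B and C). Mff lies lower in all 3 MB-3 libraries, Mfn1 and Oma1 lie higher, and the groups of the other 7 genes overlap.

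Mff (ENSMUSG00000026150), the fission factor that anchors the GTPase at the outer membrane, lies on GRCm38 chromosome 1 from 82724890 to 82752394. Its level was 84.0, 84.1 and 84.7 CPM in DMSO replicates A, B and C and 80, 79.4 and 76.2 CPM in the MB-3 replicates. The DMSO libraries were nearly identical, the MB-3 libraries were all lower, and MB-3 replicate C was the lowest. The log2 fold change was -0.10 (standard error 0.05, 95% interval -0.22 to 0.01, edgeR adjusted p = 0.518), a difference of -6.8%. An exon of a gene on the opposite strand, C430014B12Rik, shares 195 bp with Mff but had at most 1 count per library, against 3269 or more for Mff.

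Dnm1l (ENSMUSG00000022789), the GTPase that severs mitochondria, lies on chromosome 16 from 16312230 to 16358959. It was counted at 299, 277 and 286 CPM in the DMSO replicates and 301, 297 and 319 CPM in the MB-3 replicates. The groups overlapped, since DMSO replicate A lay above MB-3 replicate B. The log2 fold change was 0.09 (standard error 0.06, 95% interval -0.03 to 0.21, edgeR adjusted p = 0.595). Of the distinct 50-base stretches in its transcripts 4.90% also occur, on either strand, in transcripts of other genes. This was the largest such share among the members, so a few of its reads could have been shared. Among those other genes is Gm49521 on the opposite strand, which shares 243 bp of exon with Dnm1l and has no row in the table used here.

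Fis1 (ENSMUSG00000019054, chromosome 5 from 136953275 to 136966234), a small tail-anchored receptor, was at 37.1, 43.4 and 41.7 CPM in DMSO and 37.3, 39.5 and 38.0 CPM in MB-3. DMSO replicate A fell below all MB-3 libraries while the other DMSO replicates lay above them. Its log2 fold change was -0.09 (standard error 0.07, edgeR adjusted p = 0.676), with a 95% interval from -15.3% to 4.3%. Without DMSO replicate A it was -0.15 and without DMSO replicate B -0.04.

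Mief1 and Mief2 encode related receptors that hold the GTPase on the outer membrane. Mief1 (ENSMUSG00000022412, chromosome 15 from 80234018 to 80253371) was at 44.5, 50.8 and 43.4 CPM in DMSO and 53.4, 48.9 and 49.5 CPM in MB-3, so that only DMSO replicate B reached into the range of the MB-3 libraries. It shares 213 bp of exon with AC140267.1 on the same strand, which has no row in the table used here, so how reads of that stretch were counted is not known. The log2 fold change was 0.13 (standard error 0.07, 95% interval -0.02 to 0.28, edgeR adjusted p = 0.531). Leaving out DMSO replicate B moved it to 0.20, with an edgeR adjusted p of 0.161, and leaving out DMSO replicate C or MB-3 replicate A moved it to 0.09. Over the 14 alternatives its adjusted p ran from 0.161 to 0.901. Mief2 (ENSMUSG00000018599, chromosome 11 from 60728398 to 60732951) was the least abundant member at 8.85, 10.4 and 8.94 CPM in DMSO and 10.0, 9.22 and 10.2 CPM in MB-3. These values overlapped, with a log2 fold change of 0.07 (standard error 0.10, edgeR adjusted p = 0.845) that ran from 0.03 without DMSO replicate A or C to 0.14 without DMSO replicate B.

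The mitofusins Mfn1 and Mfn2 differed little between treatments. Mfn1 (ENSMUSG00000027668, chromosome 3 from 32529465 to 32579239) was at 44.7, 44.8 and 43.4 CPM in DMSO and 45.3, 47.1 and 45.2 CPM in MB-3. The groups were separate but by a narrow margin, 44.8 against 45.2 CPM, and the log2 fold change was 0.05 (standard error 0.06, edgeR adjusted p = 0.796). Mfn2 (ENSMUSG00000029020, chromosome 4 from 147873599 to 147904704), which also tethers mitochondria to the endoplasmic reticulum, was at 20.7, 19.3 and 19.4 CPM in DMSO and 21.9, 19.6 and 21.3 CPM in MB-3. Here MB-3 replicate B lay within the DMSO range, and the log2 fold change was 0.08 (standard error 0.07, edgeR adjusted p = 0.729).

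Opa1 (ENSMUSG00000038084, chromosome 16 from 29579334 to 29654884), the inner membrane fusion GTPase, was at 103, 94.4 and 93.4 CPM in DMSO and 101, 97.6 and 103 CPM in MB-3. DMSO replicate A was as high as the highest MB-3 library. The log2 fold change was 0.06 (standard error 0.06, edgeR adjusted p = 0.768), with a 95% interval from -4.7% to 13.4%.

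Of the proteases that process Opa1, Oma1 (ENSMUSG00000035069, chromosome 4 from 103313812 to 103371868) was at 10.1, 10.5 and 11.2 CPM in DMSO and 11.7, 12.1 and 11.8 CPM in MB-3, with all MB-3 libraries above all DMSO libraries. Its log2 fold change, the largest of the family, was 0.16 (standard error 0.08, 95% interval -0.02 to 0.34, edgeR adjusted p = 0.504). Yme1l1 (ENSMUSG00000026775, chromosome 2 from 23156369 to 23199260), which cleaves Opa1 constitutively, was at 238, 240 and 227 CPM in DMSO and 236, 241 and 226 CPM in MB-3. Its average difference was -0.3%, with a 95% interval from -8.1% to 8.1% (edgeR adjusted p = 0.984), and its sign changed with the library left out.

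With the replicate letter as a block, the comparison was made within each letter, although whether the letters mark paired cultures is not known. The estimates were the same to the printed precision, the standard errors ran from 0.04 to 0.09 where they had been 0.05 to 0.10, and again 0 of the 10 members were called, where 7.12% of all genes tested were. Mff, Dnm1l, Mief1 and Oma1, 4 of the 10, had an unadjusted p-value under 0.05, where 20.1% of all genes did. The adjusted p-values in this edgeR fit were 0.218 for Mff, 0.232 for Dnm1l, 0.168 for Mief1 and 0.238 for Oma1, and those of the other 6 members ran from 0.394 to 0.969. Over all 14 alternatives the adjusted p-values of the members lay between 0.161 and 0.991.

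**Figure D4:**
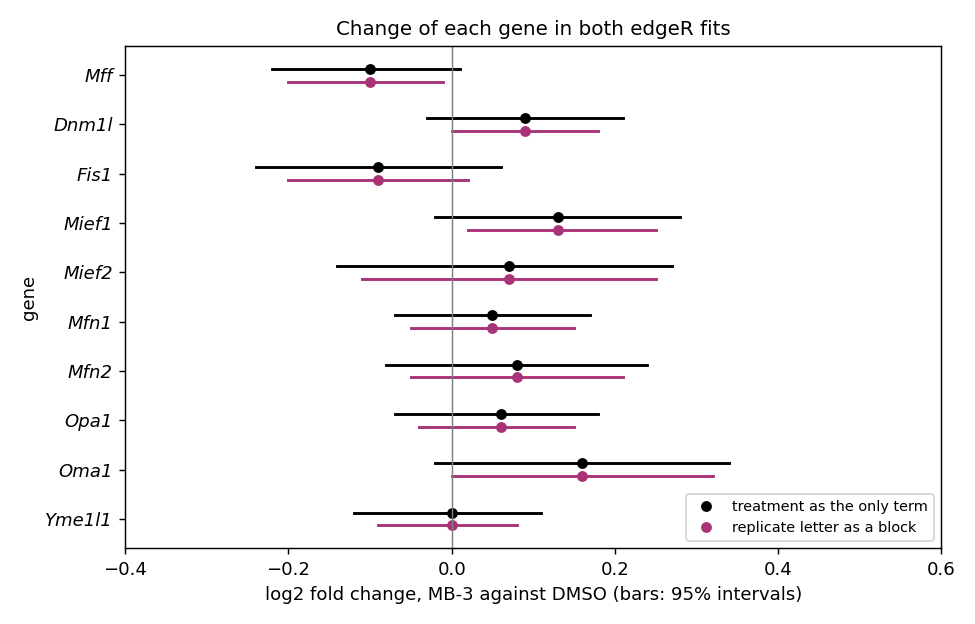
Log2 fold change of each gene, MB-3 against DMSO, with 95% intervals, from the edgeR fit with treatment as the only term (black) and with the replicate letter as a block (magenta). The points range from -0.10 for Mff to 0.16 for Oma1, and no interval of the first fit excludes 0. In the second fit the intervals of Mff (-0.2 to -0.01) and Mief1 (0.02 to 0.25) exclude 0, and those of Dnm1l and Oma1 begin at 0 as rounded. The intervals are not adjusted for the number of genes, and no member was called in either fit.

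Replicates of the family lay close together. The standard deviation of log2 CPM within a group had a median of 0.060 over the 10 members, from 0.027 to 0.105, beside a median of 0.081 over the 9805 genes tested with levels in the range of the members. Over the 6 libraries Dnm1l, Opa1 and Mfn2 had like patterns, with Pearson's r of 0.86 between Dnm1l and Opa1 and between Mfn2 and Opa1, and Mief1 was most like Mief2 (r = 0.84). Mff was most like Fis1 (r = 0.50), and the closest partners of Mfn1, Oma1 and Yme1l1 reached 0.51 to 0.56. These correlations describe 6 points that share treatment groups and carry no test.

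Genes around the core machinery were looked at through lists of their roles. Among 34 regulators and partners of fission and fusion, 17 genes of mitophagy (the removal of damaged mitochondria by autophagy) and 23 tested genes of mitochondrial biogenesis and import, 0 were called with treatment as the only term, beside 0.205% of all genes. The counts with an unadjusted p-value under 0.05 were 1, 3 and 3, beside 10.9% of all genes. The median log2 fold changes were 0.01, -0.03 and 0.01. Among the 34, 19 were higher and 15 lower on average, among the 17, 8 and 9, and among the 23, 12 and 11. Every MB-3 library lay above every DMSO library for 1, 2 and 3 genes of these lists, beside 8.22% of all genes. Every MB-3 library lay below for 0, 2 and 2, beside 7.37%. With the replicate letter as a block, 1 regulator (lower), 2 mitophagy genes (1 higher, 1 lower) and 1 biogenesis gene (higher) passed the threshold, beside the 7.12% of all genes.

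Bnip3, a mitophagy receptor that responds to hypoxia, was called only in fits that used the letters as a block or left out DMSO replicate B. It was at 35.9, 47.3 and 37.2 CPM in DMSO replicates A, B and C and 46.7, 59.4 and 45.9 CPM in the MB-3 replicates, with replicate B the highest in both groups, so that the groups overlapped. The log2 fold change was 0.34 in both fits, with an edgeR adjusted p of 0.283 with treatment only and 3.29e-05 with the block. Leaving out DMSO replicate B with treatment only gave 0.47 (edgeR adjusted p = 0.0136), leaving out MB-3 replicate B gave 0.20 (edgeR adjusted p = 0.614), and over the 14 alternatives the adjusted p ran from 3.29e-05 to 0.689. Exons of the opposite-strand gene Gm45507 overlap Bnip3, which makes its counts less certain.

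The other genes of these lists that passed with the block differed less between treatments, and over the 14 alternatives their adjusted p-values reached 0.56 (Map1lc3b), 0.791 (Marchf5) and 0.774 (Pprc1). Map1lc3b, which encodes an autophagosome protein, was at 67.8, 71.9 and 68.8 CPM in DMSO and 63.3, 60.2 and 59.8 CPM in MB-3, below DMSO in all libraries (log2 fold change -0.19, edgeR adjusted p = 0.243 with treatment only and 0.0176 with the block). Marchf5, an outer membrane ubiquitin ligase that acts on the fission machinery and is named March5 in the annotation, was at 68.8, 62.4 and 72.3 CPM in DMSO and 60.8, 56.9 and 63.7 CPM in MB-3, with overlapping groups (block log2 fold change -0.16, edgeR adjusted p = 0.391 and 0.0329). Pprc1, a coactivator of genes for mitochondrial biogenesis, was at 210, 197 and 188 CPM in DMSO and 228, 213 and 219 CPM in MB-3, above DMSO in all libraries (log2 fold change 0.15, edgeR adjusted p = 0.359 and 0.0274). Map1lc3b and Pprc1 overlap exons of genes on the opposite strand.

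**Figure D5:**
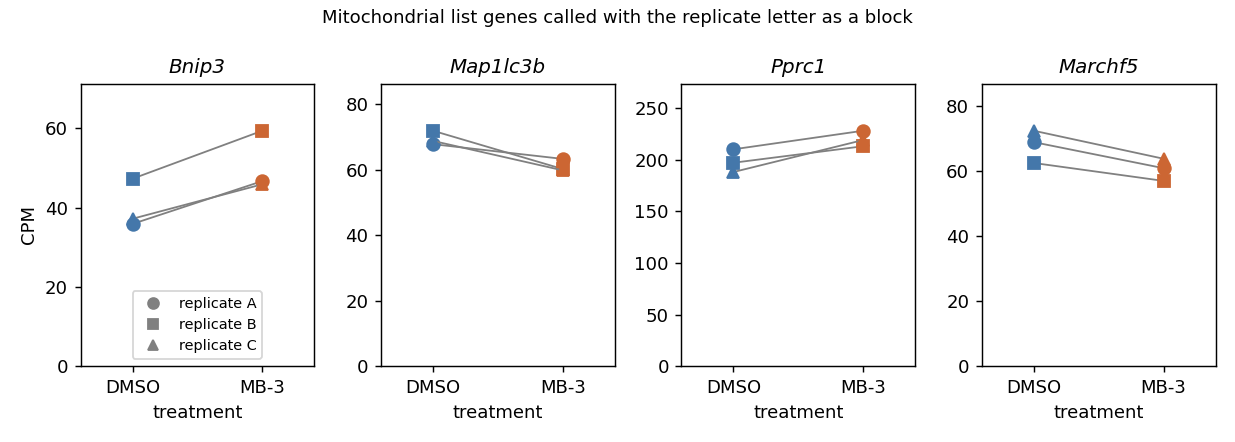
CPM of Bnip3, Map1lc3b, Pprc1 and Marchf5 in each library, with lines joining cultures of the same letter, which share a label and are not known to be pairs (circles, squares and triangles, replicates A, B and C). In Bnip3 replicate B is highest in both groups, at 47.3 and 59.4 CPM, and the groups overlap.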

How the data were processed

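The RNA-seq table deposited by the authors holds raw counts, 1 row per Ensembl gene, made with GenomicAlignments over exons from trimmed single-end reads that Bowtie had placed on mm10. Versions, annotation release and use of strand are not given in the sources used here. H3K9ac duplicates were aligned to mm9 with BWA and merged, and peaks were called against input with MACS2 and deposited as positions. Peaks were kept on mm9, and starts were raised by 1. Symbols, positions and exon lengths came from GENCODE M21 on GRCm38 (30540 of 30677 genes matched), and promoter sequences from RefSeq (GRCm38.p6), with all 10 members matched.

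Differential expression used edgeR 4.0.16 in R 4.3.3 (filterByExpr, TMM, glmQLFit, glmQLFTest) over the whole table, with Benjamini-Hochberg adjustment. Each interval is the log2 fold change plus or minus a t quantile times its standard error, which was taken from the F statistic. RPKM is CPM per kilobase of exon union, and the spread was taken on log2(CPM + 0.1). The procedure was tested on simulated data. Alternatives were RLE and upper-quartile scaling, other filters, DESeq2 1.42.0, limma-voom (limma 3.58.1), a block for the replicate letter, the robust fit of edgeR, each library left out and, for RPKM, the length of the longest transcript. Peaks were handled in Python 3.11.15 with pandas 2.3.3. The 10 members and the gene lists were chosen with earlier results of these data known. Apart from the markers, the genes named by rule were the members and any list gene with an adjusted p-value under 0.05 with or without the block. Nrf1 and Gabpa, of the biogenesis list, were named outside this rule. Ppargc1a, of the biogenesis list, has no row in the table used here.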

Additional observations from a re-analysis of the deposited data

How the results depend on the processing

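The members were called in 0 of 14 alternative fits, and the 9 members other than Yme1l1 kept the sign of their change in all of them. Without DMSO replicate A, B or C, 1 of the 10 members each had an unadjusted p-value under 0.05 (Fis1, Mief1 and Oma1), where 12.1%, 13.4% and 6.93% of all genes did. With a library left out, log2 fold changes ran from 0.06 to 0.12 for Dnm1l, 0.03 to 0.06 for Mfn1, 0.05 to 0.12 for Mfn2 and 0.03 to 0.10 for Opa1. The log2 fold change of Yme1l1 ran from -0.03 to 0.02 with each library left out. The number of called genes over the whole table was 41, and it was 25 with upper-quartile scaling (8 higher and 17 lower, against 20 and 21), 194 without a filter, 25 with at least 10 counts in all 6 libraries, 183 with DESeq2, which was fitted without the filter, 192 with DESeq2 on the 20027 filtered genes (an alternative added after the data were seen, with 0 members called), 18 with limma-voom and 66 with edgeR's robust option. Leaving out a library gave 0 to 520 calls, with 520 without DMSO replicate B, 3 without DMSO replicate A, 5 without DMSO replicate C, 62 without MB-3 replicate C, and 0 in edgeR without MB-3 replicate A or B, where the genes with an unadjusted p-value under 0.05 numbered 1440 and 1716. With a library left out, calls in the mitophagy list ran from 0 to 1, the call being Bnip3 without DMSO replicate B. The median log2 fold change of all genes was -0.001, and -0.003 and -0.007 with RLE and upper-quartile scaling.

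With the replicate block the edgeR test called 1425 genes, 1 of the regulators and partners, 2 of mitophagy and 1 of biogenesis and import. Same-lettered libraries deviated from their group means with correlations of 0.098 (A), 0.261 (B) and 0.213 (C) on edgeR's log2 CPM and of 0.23, 0.43 and 0.32 on log2(CPM + 1). The value for A was under 0.1 on the first scale and over it on the second, and every library correlated best with its own letter, so the check did not settle whether the letters are pairs. The fit without the block was kept as the main one, and a call made only with the block depends on that choice. The planned test between letters and its alternatives were not run. The peak overlaps of the 4 genes were the same within 1000 bp and at 50% coverage. The cause of these differences was not tested.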

Other observations

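Transcripts of the factors that bind the NRF1 and GABPA letters were counted in all libraries. Nrf1 was at 80.4, 77.5 and 78.3 CPM in DMSO replicates A, B and C and 71.2, 74.1 and 76.4 CPM in the MB-3 replicates. All its MB-3 libraries lay below all its DMSO libraries, as in 7.37% of all genes, and it was not called (log2 fold change -0.09, edgeR adjusted p = 0.578). Gabpa averaged 167 ± 10.1 CPM in the controls and 173 ± 2.94 CPM in the treated cultures (SD, n = 3) and shares exon bases with Atp5j on the opposite strand, with a log2 fold change of 0.04 (edgeR adjusted p = 0.822). Both were named after their values had been seen.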
